A study of Mus musculus with 24 samples.

Results

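The Gadd45 family of the mouse (Gadd45a, Gadd45b and Gadd45g) was examined in neonatal cerebellum after ethanol exposure. Its 3 members were taken by gene name, as 3 of 55416 gene rows, and all 3 were among the 17736 genes that passed the filter on low counts. They were selected on the Ethanol against Control difference of these same libraries, so that difference is given below as a description, without a test. The SE printed with it takes no account of this selection. Poly(A) RNA was sequenced from 24 C57BL/6J pups, 12 Ethanol and 12 Control. Ethanol animals received ethanol at 4 g/kg/day in intralipid by intragastric gavage, starting at P4, and Control animals received the intralipid vehicle without ethanol on the same schedule, so that handling, gavage and the lipid load were shared by both groups. The study's methods place collection at P5 or P6 after perfusion. The tissue label reads Brain, while the methods specify cerebellum. The labels used here give treatment and an animal number but not age, sex or litter, so each value covers both ages. No transgene or mutant allele was involved.

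The GADD45 proteins are small, acidic, mainly nuclear proteins without enzymatic activity of their own, which are induced by DNA damage, nutrient stress and other insults. They act by binding partners: the kinase MAP3K4 upstream of p38 and JNK, the CDK1 and cyclin B1 complex that drives entry into mitosis, the replication clamp PCNA and the CDK inhibitor p21, and repair enzymes with which they take part in removal of DNA methylation. In the nervous system, Gadd45b is known as an activity-induced gene of neurons, Gadd45g as a gene switched on as neural progenitors leave the cell cycle, and Gadd45a as a target of p53.

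Libraries held 26982564 to 38804942 estimated counts in Ethanol animals and 29039888 to 38696615 in Control animals. All 57 genes of 10 lists of cerebellar cell type markers passed the filter on low counts, Purkinje cell and granule neuron genes included. At an adjusted p of 0.05 in edgeR's quasi-likelihood test, 9.07% of all genes tested were higher and 5.80% lower in Ethanol animals. The counts that follow describe short lists beside these shares. The astrocyte and Bergmann glia list had 3 of 6 genes higher and 1 lower. Its summed level was 2980 to 3550 CPM (counts scaled to a common library size) in Ethanol animals and 2700 to 3370 CPM in Control animals. The microglia list had 2 of 7 genes higher and 1 lower (146 to 228 CPM in Ethanol and 143 to 190 CPM in Control animals). The endothelium list had 2 of 5 genes lower and none higher (222 to 252 CPM in Ethanol and 255 to 274 CPM in Control animals), and the pericyte and meninges list had 3 of 6 lower and none higher (387 to 540 CPM in Ethanol and 480 to 613 CPM in Control animals). The granule neuron precursor list had 2 of 5 genes higher and 1 lower, the Purkinje cell list had 1 of 6 lower, and the granule neuron, oligodendrocyte lineage, choroid plexus and blood lists had 0 genes past the test. The part of these shifts in the Gadd45 values was not tested, and in whole tissue fewer cells of a type and less RNA per cell cannot be told apart. Ttr, the choroid plexus transcript for transthyretin, stood at 3.42 and 3.57 CPM in 2 Ethanol libraries and at 1.15 and 2.61 CPM in 2 Control libraries, against at least 322 CPM in the other Ethanol and 712 CPM in the other Control libraries.

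The promoters of the 3 genes are shown because all of them hold a CCAAT box, while the other short elements found are each shared by at most a pair of members. Each sequence is the 250 bases before the RefSeq start in GRCm38.p6, 5′ to 3′ on the strand of the gene. Capitals mark the CCAAT box, the TATA box (TATAAA), the octamer (ATGCAAAT, the POU factor element) and the CARE (TGATGCAA, the element of C/EBP and ATF heterodimers), each on either strand. The Gadd45a sequence is chr6:67037408-67037657 (minus strand), that of Gadd45b is chr10:80929841-80930090 (plus strand) and that of Gadd45g is chr13:51846425-51846674 (plus strand).
Gadd45a: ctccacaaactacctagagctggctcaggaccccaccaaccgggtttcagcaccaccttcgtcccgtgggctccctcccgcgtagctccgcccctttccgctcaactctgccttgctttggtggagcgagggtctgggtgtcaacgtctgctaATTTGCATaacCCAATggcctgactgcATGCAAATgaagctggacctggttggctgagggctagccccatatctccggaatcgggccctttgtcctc
Gadd45b: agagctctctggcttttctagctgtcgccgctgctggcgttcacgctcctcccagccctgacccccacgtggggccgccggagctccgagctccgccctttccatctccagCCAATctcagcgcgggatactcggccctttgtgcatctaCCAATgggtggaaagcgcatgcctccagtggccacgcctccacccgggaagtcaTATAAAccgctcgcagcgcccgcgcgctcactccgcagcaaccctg
Gadd45g: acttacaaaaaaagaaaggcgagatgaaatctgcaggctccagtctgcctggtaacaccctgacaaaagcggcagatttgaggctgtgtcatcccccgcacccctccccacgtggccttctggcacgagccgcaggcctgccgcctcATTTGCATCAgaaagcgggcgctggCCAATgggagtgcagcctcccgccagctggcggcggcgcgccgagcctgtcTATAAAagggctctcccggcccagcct

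A CCAAT box was present in all 3 promoters, once in Gadd45a and Gadd45g and at 2 places in Gadd45b. Of 32851 mouse promoter sequences of the same design, 37.4% held one. The octamer, which was added to the search after the sequences had been read, occurred at 2 places in Gadd45a and once in Gadd45g, where 1.74% of all promoters held it. Gadd45b had no octamer. The octamer of Gadd45g overlapped the CARE of that promoter, which was the 1 CARE found among the members (0.895% of all promoters held one). A TATA box was found in Gadd45b and Gadd45g and not in Gadd45a (13.6% of all promoters). Gadd45b and Gadd45g also held an E-box each (CACGTG, 7.15% of all promoters), and Gadd45a and Gadd45b a GC box each (GGGCGG, 35.7% of all promoters). A single p53 decamer was found in Gadd45a (8.36% of all promoters). No member matched the full CRE (TGACGTCA), its core TGACG, the AP-1 site (TGANTCA), the NF-kappaB site or the CArG box in the same 250 bases or the 50 after the start that were also searched. These are matches of letters and not sites of measured binding.

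Gadd45g was the most abundant member, Gadd45a came next and Gadd45b was lowest. Per kilobase of exon in the GENCODE M21 annotation of GRCm38, Gadd45g averaged 21.1 ± 2.72 CPM in Ethanol animals and 17.8 ± 1.34 CPM in Control animals (SD, n = 12 each), Gadd45a 4.90 ± 0.549 CPM in Ethanol and 3.96 ± 0.428 CPM in Control animals, and Gadd45b 1.93 ± 0.289 CPM in Ethanol and 1.38 ± 0.211 CPM in Control animals. The 3 ranges over the 24 animals did not overlap, with 15.3 to 26.6 CPM per kilobase for Gadd45g, 3.32 to 5.61 for Gadd45a and 1.04 to 2.37 for Gadd45b. Gadd45g thus made up 75.5 ± 1.31% of the summed per-kilobase level of the family in Ethanol animals and 76.9 ± 1.52% in Control animals. Gadd45b made up 6.91 ± 0.605% in Ethanol and 5.97 ± 1.03% in Control animals, and Gadd45a 17.6 ± 1.14% in Ethanol and 17.1 ± 1.70% in Control animals.

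Gadd45a, the member that p53 is known to induce, ranged in Ethanol animals from 7.24 to 9.90 CPM with a median of 8.74 CPM, against 5.86 to 8.70 CPM with a median of 6.97 CPM in Control animals. The groups overlapped, with 6 of 12 Ethanol animals above the highest Control animal and 12 of 12 above the Control median. The log2 fold change was 0.31 ± 0.065 (SE), or 1.24-fold. The 2 Control libraries low in Ttr held the highest Gadd45a levels of the Control animals (7.72 and 8.70 CPM). Without the 4 libraries low in Ttr, Gadd45a averaged 8.54 ± 1.02 CPM in Ethanol animals and 6.74 ± 0.49 CPM in Control animals (SD, n = 10 each), and the highest Control value was 7.49 CPM.

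Gadd45a reads carry an uncertainty that those of Gadd45b and Gadd45g do not. In the GENCODE M21 annotation, the lncRNA E230016M11Rik runs on the opposite strand over 337 bases of Gadd45a exon (19.1% of its exon length), and the strand setting of the counting is not given in the sources used here. E230016M11Rik was lower in Ethanol animals by a difference short of the test, at 4.60 ± 0.736 CPM in Ethanol and 5.16 ± 0.604 CPM in Control animals (SD, n = 12 each), or -0.17 ± 0.081 as log2 fold change (SE; edgeR's quasi-likelihood test gave an adjusted p of 0.176). The estimated counts of Gadd45a and E230016M11Rik were fractional in all 24 libraries, and their sum was whole (within 0.01) in 24 of 24 libraries, so reads were divided between the genes and their values are not independent of each other. How much of the Gadd45a difference reflects this division of reads was not tested.

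Gadd45b, the member of neuronal activity and of TGF-beta and NF-kappaB signalling, ranged in Ethanol animals from 2.44 to 3.76 CPM with a median of 3.04 CPM, against 1.65 to 2.83 CPM with a median of 2.17 CPM in Control animals. All 12 Ethanol animals were above the Control median and 8 were above the highest Control animal, and 9 of 12 Control animals were below the lowest Ethanol animal. The log2 fold change was 0.49 ± 0.093 (SE), or 1.40-fold, the largest of the family. Gadd45b rested on the fewest reads, 56 to 146 per library. Counting error alone corresponds to a coefficient of variation of 9.91% in Ethanol and 11.8% in Control animals, against an observed 15% in Ethanol and 15.3% in Control animals.

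Gadd45g, the member tied to neural differentiation, ranged in Ethanol animals from 21.1 to 31.2 CPM with a median of 23.6 CPM, against 18.0 to 23.1 CPM with a median of 21.5 CPM in Control animals. Of the Ethanol animals, 11 of 12 were above the Control median and 7 were above the highest Control animal. The log2 fold change was 0.24 ± 0.058 (SE), or 1.18-fold. The Ethanol animals were also more spread out than the Control animals, with a coefficient of variation of 12.9% in Ethanol and 7.53% in Control animals, where counting error alone corresponds to 3.49% in Ethanol and 3.82% in Control animals. This difference in spread was not tested.

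**Figure D1:**
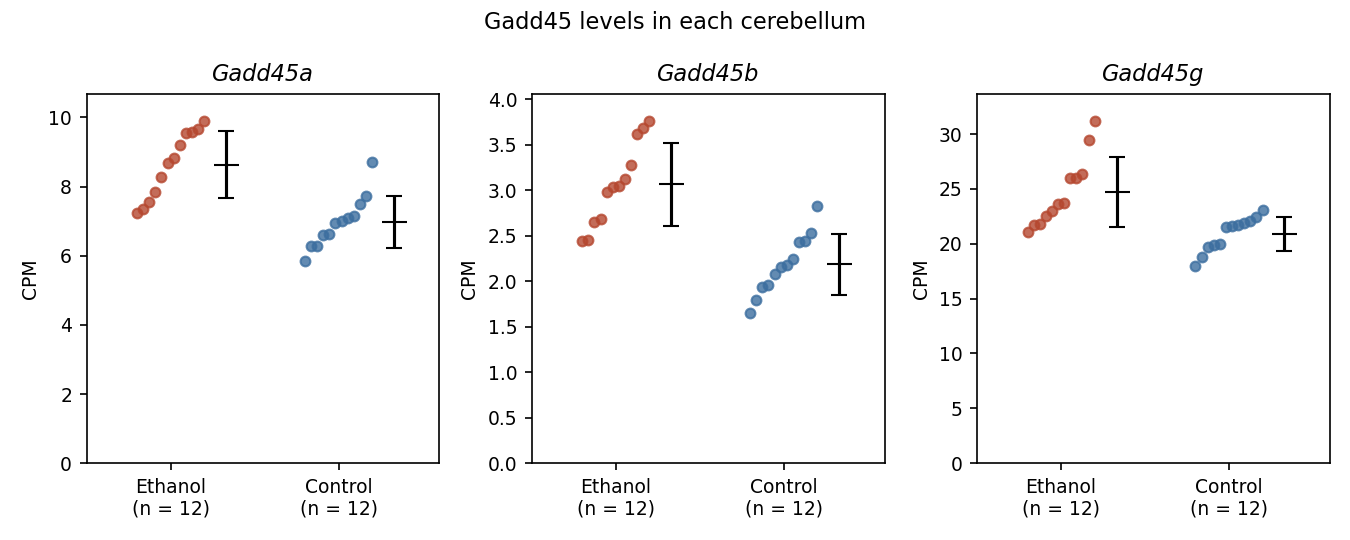
Level of each Gadd45 member in CPM (vertical axes from 0), with 1 point for each of 12 Ethanol and 12 Control animals, sorted by level within a group; the black bar is the mean ± SD. The groups overlap for every member, and 6, 8 and 7 Ethanol animals lie above the highest Control animal for Gadd45a, Gadd45b and Gadd45g.

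Counted down from the most positive log2 fold change, the members were ranked 228 (Gadd45b), 674 (Gadd45a) and 993 (Gadd45g) of 17736 genes. Genes that fell stand at the other end of this order, so it is not a ranking by size regardless of sign. Of all genes tested, 9.07% (1608 genes) were higher and 5.80% (1028 genes) lower in Ethanol animals at an adjusted p of 0.05 in edgeR's quasi-likelihood test. Since this contrast chose the members, no outcome of the test is given for them. With upper-quartile factors the split of all genes was 1373 higher and 1396 lower, and the members kept positive log2 fold changes of 0.30 (Gadd45a), 0.48 (Gadd45b) and 0.23 (Gadd45g).

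In numerical order, with gaps, the animal numbers were divided into 6 runs of 4 animals, each with 2 Ethanol and 2 Control animals. The methods draw the animals from 6 litters, each giving a male and a female of either treatment, a structure that has the same number of sets and the same split by treatment as the runs. No label ties an animal number to a litter or an age, so the runs serve as a technical grouping alone and as a block in an alternative fit, which gave log2 fold changes of 0.31 for Gadd45a, 0.49 for Gadd45b and 0.24 for Gadd45g. Every member was higher in the Ethanol animals of every run. The runs divide the same libraries on which the members were chosen, so this is a description and not independent support. The mean log2 difference ran from 0.12 to 0.58 for Gadd45a, from 0.15 to 0.65 for Gadd45b and from 0.082 to 0.41 for Gadd45g. In 4 of 6 runs for Gadd45a, and in 5 of 6 runs for Gadd45b and for Gadd45g, both Ethanol animals were above both Control animals. The share of all tested genes that reach such counts is not given here, so they do not set the members apart. Gadd45a and Gadd45g had their largest differences in run 1 (0.58 and 0.41) and their smallest in run 5 (0.12 and 0.082), whereas Gadd45b was at 0.45 in run 5 and had its smallest difference in run 3.

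**Figure D2:**
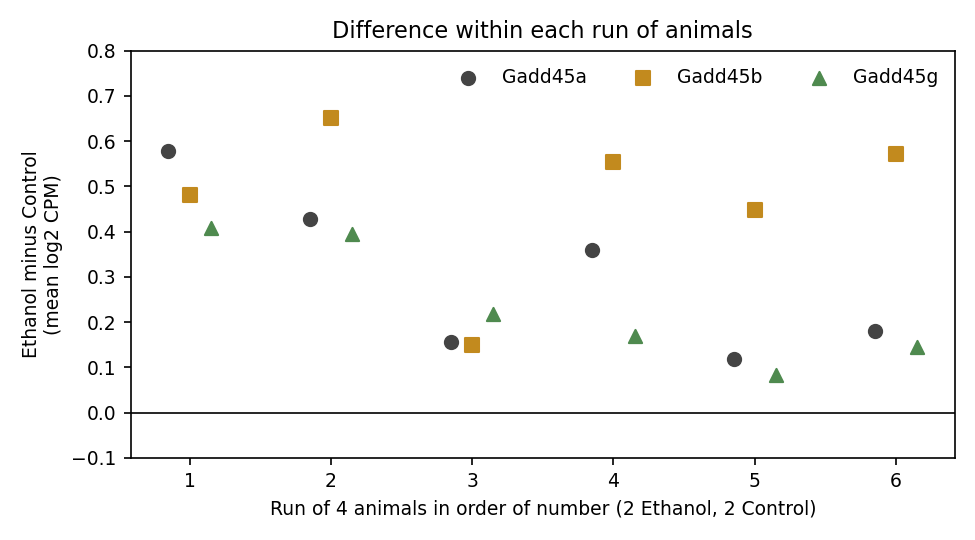
Mean log2 CPM of the 2 Ethanol animals minus that of the 2 Control animals in each of 6 runs of 4 animals taken in order of their numbers, with 1 symbol per member. All 18 points lie above the line at 0, in the libraries on which the members were chosen. Gadd45b stays at 0.45 in run 5, where Gadd45a and Gadd45g are at 0.12 and 0.082.

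Whether the members moved together from animal to animal was examined after the group means had been removed, on log2 CPM, with permutation of animals within groups. Gadd45a and Gadd45g had r = 0.56 and rho = 0.62 over 24 animals (two-sided permutation p = 0.00564 and 0.00255). Adjusted over 33 relations the values were p = 0.0553 for r and 0.0421 for rho, so that the call depends on the measure. Without the 2 animals farthest from the median of Gadd45a, r was 0.55. Gadd45b and Gadd45g had r = 0.45 and rho = 0.41 (permutation p = 0.0309 and 0.0526, adjusted p = 0.128 and 0.215), and r was 0.52 without the 2 farthest animals. Gadd45a and Gadd45b had r = 0.048 and rho = 0.13 (permutation p = 0.824 and 0.557, adjusted p = 0.877 and 0.707). With the means of the runs also removed, r was 0.53 for Gadd45a with Gadd45g and 0.57 for Gadd45b with Gadd45g. It was 0.20 for Gadd45a with Gadd45b (permutation, adjusted p = 0.0503, 0.0503 and 0.549 in this order). That permutation exchanged animals across runs and took no account of the fitted run means, so these p-values can be too small.

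The near-zero value for Gadd45a with Gadd45b combined opposite values in the groups. Among the 12 Ethanol animals r was 0.72 (rho = 0.76), and among the 12 Control animals it was -0.67 (rho = -0.52). Without the libraries low in Ttr, r was 0.79 (10 Ethanol animals) and -0.38 (10 Control animals). Control animal X4570 was lowest in Gadd45a and highest in Gadd45b of its group, and X4770, low in Ttr, was the reverse. How far the Control value rests on single animals was not tested. Gadd45a with Gadd45g gave r = 0.78 in Ethanol and 0.22 in Control animals, and Gadd45b with Gadd45g gave r = 0.78 in Ethanol and -0.041 in Control animals. The difference in r between the groups was not tested. In Ethanol animals, 3 animals (X4568, X4673 and X4692) were among the 4 highest of their group for all 3 members, and 1 animal (X4683) was among the 4 lowest for all 3. In Control animals none was among the 4 highest for all members and 1 (X4677) was among the 4 lowest.

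**Figure D3:**
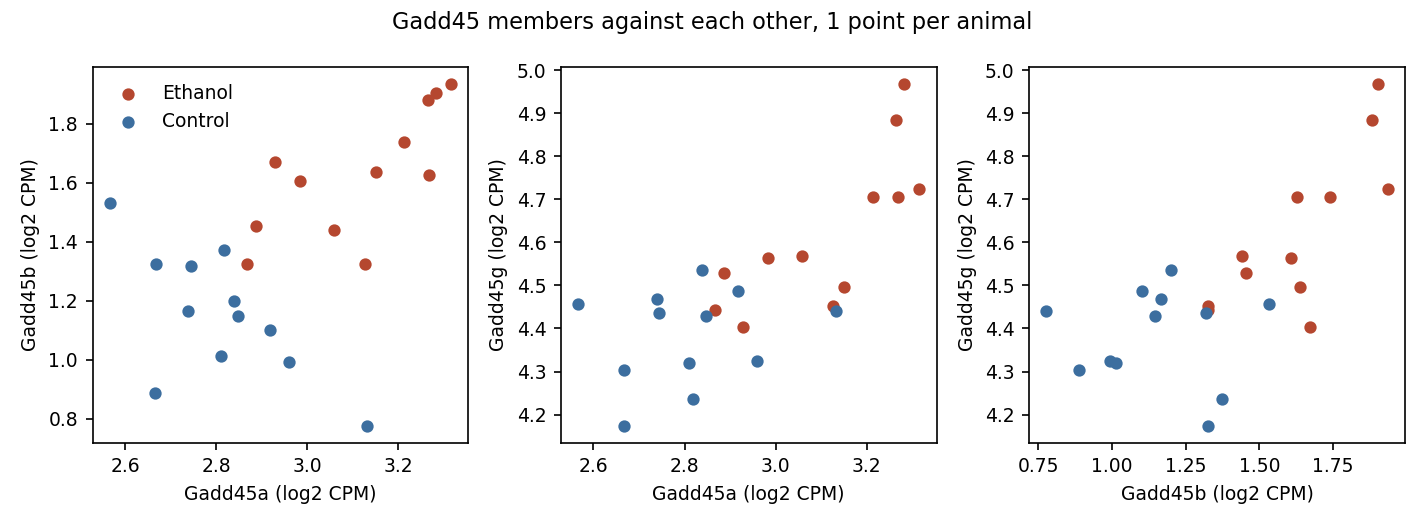
Log2 CPM of each pair of Gadd45 members, with 1 point per animal (12 Ethanol, 12 Control). Ethanol points run upward together in every panel (r = 0.72, 0.78 and 0.78). Control points slope downward for Gadd45a with Gadd45b (r = -0.67, and -0.38 over the 10 Control animals not low in Ttr), with X4570 and X4770 at opposite ends.

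The 10 comparison genes gave the remaining 30 of the 33 relations. None of the 33 passed an adjusted p of 0.05 for r by permutation (lowest adjusted p = 0.0553), 9 had an unadjusted p under 0.05, and 3 passed for rho. The strongest were with Hes5, a Notch target that holds progenitors undifferentiated, and Egr1, an immediate early transcription factor. Hes5 had r = 0.57 with Gadd45a (adjusted p = 0.0553 for r and 0.0421 for rho, permutation) and r = 0.61 with Gadd45g (adjusted p = 0.0553 and 0.0652). Without the 2 animals farthest in the member, r with Hes5 was 0.65 for Gadd45a and 0.40 for Gadd45g. Egr1 ran the other way, with r = -0.56 for Gadd45a (adjusted p = 0.0553 for r and 0.0451 for rho, permutation). With the run means removed, r was 0.64 for Gadd45g with Hes5 and -0.61 for Gadd45b with Egr1. Their adjusted p was 0.033 each by permutation, the only 2 relations under 0.05 in that setting. As above, these p-values can be too small, since the permutation took no account of the fitted run means, so no call is read from them. Ddit3, which encodes the stress factor CHOP, had r = 0.40 with Gadd45a, 0.12 with Gadd45b and 0.34 with Gadd45g, and Chac1, its target, had r between -0.10 and 0.049 (permutation, adjusted p = 0.20 or more for all of these). The other comparison genes but Ttr were Cdkn1a, the immediate early gene Fos, the NF-kappaB inhibitor gene Nfkbia, the glucocorticoid-induced gene Fkbp5 and the neuronal factor gene Neurod1. Among their 15 relations the strongest were Gadd45a with Cdkn1a (r = -0.46, rho = -0.34), Gadd45a with Neurod1 (r = 0.45, rho = 0.46) and Gadd45b with Cdkn1a (r = 0.44, rho = 0.52). All 15 had an adjusted p of at least 0.128 for r and 0.068 for rho by permutation, with 3 under 0.05 unadjusted for r. Gadd45b with Cdkn1a passed once animal X4760 was left out (r = 0.67). Between groups, Fos rose by 0.62 ± 0.17 and Nfkbia by 0.24 ± 0.073 on the log2 scale (SE, adjusted p = 0.0136 and 0.0283, edgeR). Fos lost its call without run 1 or run 3, and Nfkbia lost it in 8 of 41 settings, among them those leaving out the 4 libraries low in Ttr or animal X4568, X4569, X4677 or X4760 (adjusted p up to 0.105 for Fos and 0.166 for Nfkbia, edgeR). Fkbp5 and Neurod1 stood at 0.023 ± 0.031 and 0.21 ± 0.089 (SE, adjusted p = 0.684 and 0.114, edgeR), and Neurod1 passed in 3 of 41 settings (adjusted p 0.0255 to 0.388).

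For Ttr no pooled r is given, since the 4 libraries low in Ttr form a cluster of their own. The relation over all 24 animals, which is counted among the 33, had a permutation p = 0.0107 for Gadd45a (adjusted p = 0.0705), 0.106 for Gadd45b (adjusted p = 0.251) and 0.653 for Gadd45g (adjusted p = 0.862). Over the remaining 20 animals r with Ttr was -0.22 for Gadd45a, 0.062 for Gadd45b and -0.14 for Gadd45g (permutation, adjusted p = 0.702, 0.913 and 0.725). The 4 low libraries held 8.67 and 9.54 CPM of Gadd45a in Ethanol and 7.72 and 8.70 CPM in Control animals, and 2.45 and 3.62 CPM of Gadd45b in Ethanol and 1.65 and 1.93 CPM in Control animals.

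**Figure D4:**
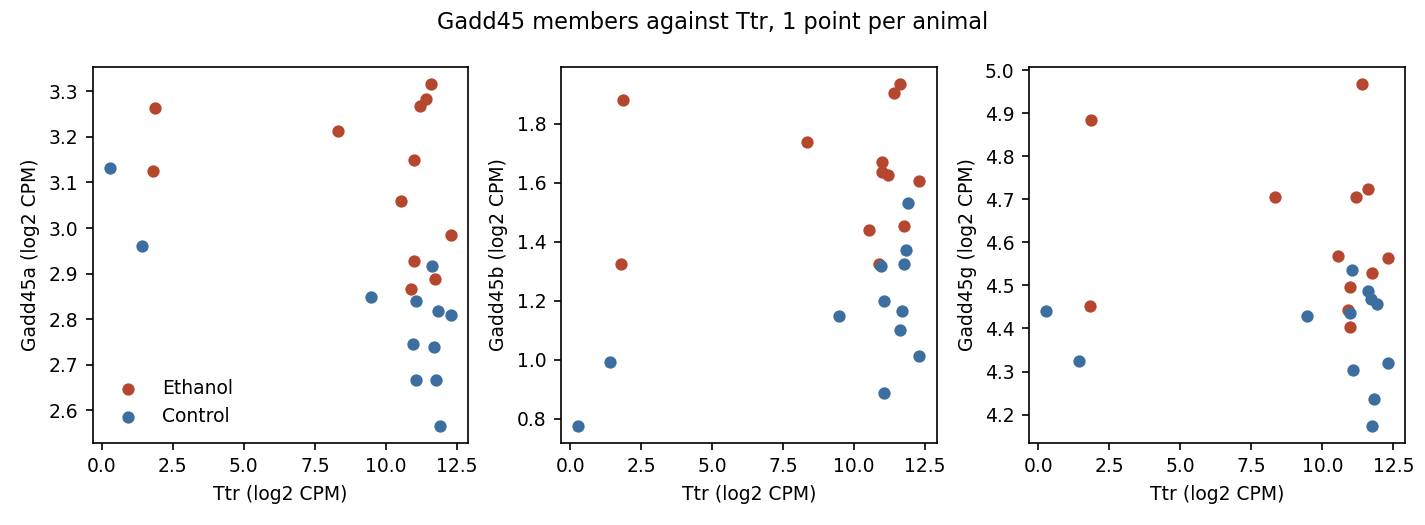
Log2 CPM of each Gadd45 member against log2 CPM of the choroid plexus transcript Ttr, with 1 point per animal (12 Ethanol, 12 Control). The 4 libraries at the left (2 Ethanol, 2 Control) stand apart in Ttr, and the 2 Control ones are the highest Control libraries for Gadd45a.

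The genes whose pattern within groups was most like that of each member, among the 14091 genes whose mean log2 CPM reached 1, are given as a description over 24 libraries that share their depth and tissue makeup. For Gadd45a these were Rrnad1 (r = 0.79), Nhlh1 (0.77), which encodes a transcription factor of newly formed neurons, Ly6e (0.75), Acd (0.75), a telomere protein gene, and Zfp68 (0.74). For Gadd45b they were Mrps6 (r = 0.71), of the mitochondrial ribosome, Fhit (0.70), Myl6b (0.70), Thap1 (0.69) and Ptp4a3 (0.66). For Gadd45g they were Uck1 (r = 0.80), a uridine and cytidine kinase, Stx5a (0.78), a syntaxin of the Golgi, Gm42846 (0.78), Atg101 (0.77), of the autophagy initiation complex, and Psmd9 (0.77), a proteasome assembly chaperone. Of the Gadd45a group, Nhlh1 averaged 91.4 CPM in Ethanol and 68.2 CPM in Control animals and rose (log2 fold change 0.42 ± 0.099 SE, adjusted p = 0.00536, edgeR), and Rrnad1 and Zfp68 also rose (0.16 and 0.17). Of the other 10 genes in the Gadd45b and Gadd45g groups, Atg101 passed the test (log2 fold change 0.15, adjusted p = 0.0462, edgeR). The r values of this paragraph were not tested, and taking the highest among 14091 genes raises them by the search alone.

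Of 17 genes listed for the MAP kinase route, on which the GADD45 proteins act, 0 passed the test (edgeR). These are transcript levels, and the activity of the route was not measured. Of all genes tested, 9.07% were higher and 5.80% lower. At an unadjusted p under 0.05 were 6 of the 17 genes, beside 5041 of all 17736 genes. The median log2 fold change was 0.0032, beside -0.0057 for all genes tested. The list was not tested as a set. Map3k4, the kinase that GADD45 proteins bind directly and named here for that role, stood at -0.040 ± 0.023 on the log2 scale (SE, adjusted p = 0.271, edgeR), and the JNK genes Mapk8 and Mapk9 had -0.018 ± 0.028 and 0.0077 ± 0.037. By limma-trend and limma-voom 0 passed, and by DESeq2 2 passed as lower, Mapk11 and Mapkapk2 (log2 fold change -0.11 and -0.098, adjusted p = 0.0397 and 0.0444). With the runs as a block 3 passed in edgeR, Map2k7 as higher (0.078, adjusted p = 0.0434) and Mapk11 and Traf4 as lower (-0.11 and -0.10, adjusted p = 0.0195 and 0.0266). These 4 genes were named after their values were seen.

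Of 10 genes listed as cell cycle partners or their regulators, 1 rose and 2 fell, with a median log2 fold change of -0.064. Of all genes tested, 9.07% were higher and 5.80% lower. Cdk1, Ccnb1 and Pcna, named here as direct partners, did not pass (log2 fold change -0.11, -0.072 and -0.055, adjusted p = 0.142, 0.304 and 0.477, edgeR). The 2 that fell, Ccnb2 and Cdc25b, are not among the partners named at the opening. Cdkn1a, which encodes the CDK inhibitor p21, rose by 0.19 ± 0.054 on the log2 scale (SE, adjusted p = 0.0149, edgeR), with 63.7 ± 6.44 CPM in Ethanol and 55.7 ± 5.44 CPM in Control animals (SD, n = 12 each). Its call was lost when run 2 or run 4 was left out (adjusted p up to 0.0634, edgeR). Ccnb2, a cyclin B gene, had 39.1 ± 3.89 CPM in Ethanol and 46.1 ± 3.62 CPM in Control animals and fell by 0.24 ± 0.051 on the log2 scale (adjusted p = 0.00226, edgeR), with 0 of 12 Ethanol animals above the Control median. Cdc25b, the phosphatase gene that activates CDK1, was at the threshold (log2 fold change -0.11, adjusted p = 0.0494, edgeR) and lost its call in 26 of 41 alternative settings (adjusted p 0.0152 to 0.177). Of 16 tested genes of DNA demethylation and excision repair 2 rose, with a median of -0.0021. These were the endonuclease gene Ercc5 (log2 fold change 0.086, adjusted p = 0.0264, edgeR) and the cytidine deaminase gene Apobec1 (0.37, adjusted p = 0.0273), with adjusted p = 0.0637 and 0.0612 without the 4 libraries low in Ttr. Both also lost the call without animal X4568, X4677 or X4692, Apobec1 without X4760, and Ercc5 without X4569, X4758 or X4762 (adjusted p up to 0.128 for Apobec1 and 0.101 for Ercc5 over all settings, edgeR).

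Of 19 tested regulators known to act on Gadd45 genes, 7 rose and 2 fell, beside 9.07% higher and 5.80% lower of all genes tested. The median log2 fold change was 0.082. This list was chosen with earlier results of these data known, so the count is a description. Myc, a proliferation factor that represses Gadd45a in other systems, had 22.5 ± 2.55 CPM in Ethanol and 16.9 ± 1.55 CPM in Control animals and rose by 0.42 ± 0.058 on the log2 scale (SE, adjusted p = 4.28e-05, edgeR). Ddit3 rose by 0.39 ± 0.068 (13.2 ± 2.10 CPM in Ethanol and 10.1 ± 0.737 CPM in Control animals, adjusted p = 0.00032). Atf4, the transcription factor of the integrated stress response, rose by 0.22 and Stat3 by 0.21 (adjusted p = 0.00264 and 0.00192, edgeR). Smad3 and Foxo1 fell, with log2 fold changes of -0.16 and -0.19 (adjusted p = 0.00221 and 0.0184, edgeR). Foxo1 lost its call in 4 of 41 settings, each of which left out 1 run (run 1, 3, 4 or 6; adjusted p up to 0.082).

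The lists of genes that respond to the same stimuli as the Gadd45 genes differed in their counts. They were chosen with earlier results of these data known, so the counts are a description and not independent evidence. Of 14 ATF4 and CHOP targets, 11 rose and 1 fell, beside 9.07% higher and 5.80% lower of all genes tested. The median log2 fold change was 0.33. Chac1, a glutathione-degrading enzyme gene, had 13.4 ± 6.12 CPM in Ethanol and 3.78 ± 0.661 CPM in Control animals and rose by 1.83 ± 0.23 on the log2 scale (SE, adjusted p = 3.05e-05, edgeR). The pseudokinase gene Trib3 rose by 1.41, Atf3 by 0.86 and the sestrin gene Sesn2 by 0.51 (adjusted p at most 0.000217, edgeR). The gene that fell was Ppp1r15a, which encodes GADD34, the phosphatase subunit that reverses the integrated stress response. It had 16.7 ± 1.46 CPM in Ethanol and 19.1 ± 1.59 CPM in Control animals (log2 fold change -0.20 ± 0.050, adjusted p = 0.0084, edgeR; 0.0586 without run 1). Ddit3 and Ppp1r15a share the GADD name with the Gadd45 genes, and in these animals Ddit3 was higher and Ppp1r15a lower.

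Of 22 p53 targets, also listed with earlier results known, 6 rose and 1 fell, beside 9.07% higher and 5.80% lower of all genes tested. The median log2 fold change was 0.039. The death receptor gene Fas, at 0.732 ± 0.286 CPM in Ethanol and 0.364 ± 0.118 CPM in Control animals, rose by 1.00 ± 0.20 on the log2 scale (SE, adjusted p = 0.00118, edgeR). Eda2r rose by 0.35, the antiproliferative gene Btg2 by 0.22 and Mdm2, the p53 ubiquitin ligase gene, by 0.13 (adjusted p = 0.000129, 0.00647 and 0.00298, edgeR). Pmaip1, which encodes the BH3 protein NOXA, fell (log2 fold change -0.26, adjusted p = 0.0389, edgeR), a call lost in 17 of 41 settings (adjusted p 0.015 to 0.15). Of 20 immediate early genes, 7 rose and none fell, with a median of 0.24, among them Junb (0.50), Fosl2 (0.42) and Klf6 (0.29; adjusted p = 0.00583, 0.000494 and 0.000102, edgeR). Egr1 stood at -0.35 ± 0.14 on the log2 scale (SE, adjusted p = 0.0868, edgeR), with 19.5 ± 5.31 CPM in Ethanol and 24.8 ± 4.95 CPM in Control animals. It passed in 3 of 41 settings (adjusted p 0.0362 to 0.217), with limma-voom and without animal X4674 or X4683.

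Of 13 neural differentiation genes, also listed with earlier results known, 7 rose and none fell, beside 9.07% higher and 5.80% lower of all genes tested. The median log2 fold change was 0.20. This list mixes genes that promote differentiation with genes that hold it back, such as Hes5, so its count gives no direction of differentiation. Hes5 had 22.7 ± 5.50 CPM in Ethanol and 13.3 ± 1.87 CPM in Control animals and rose by 0.78 ± 0.11 on the log2 scale (SE, adjusted p = 7.96e-05, edgeR). The proneural factor genes Neurog1 and Neurog2 rose by 0.68 and 0.52 (adjusted p = 0.000205 and 0.000139, edgeR), with all 12 and 11 of 12 Ethanol animals above the Control median. Without the 4 libraries low in Ttr, 4 of the 13 genes passed. Btg2 belongs to this list, to the p53 targets and to the immediate early genes, and counts in each.

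**Figure D5:**
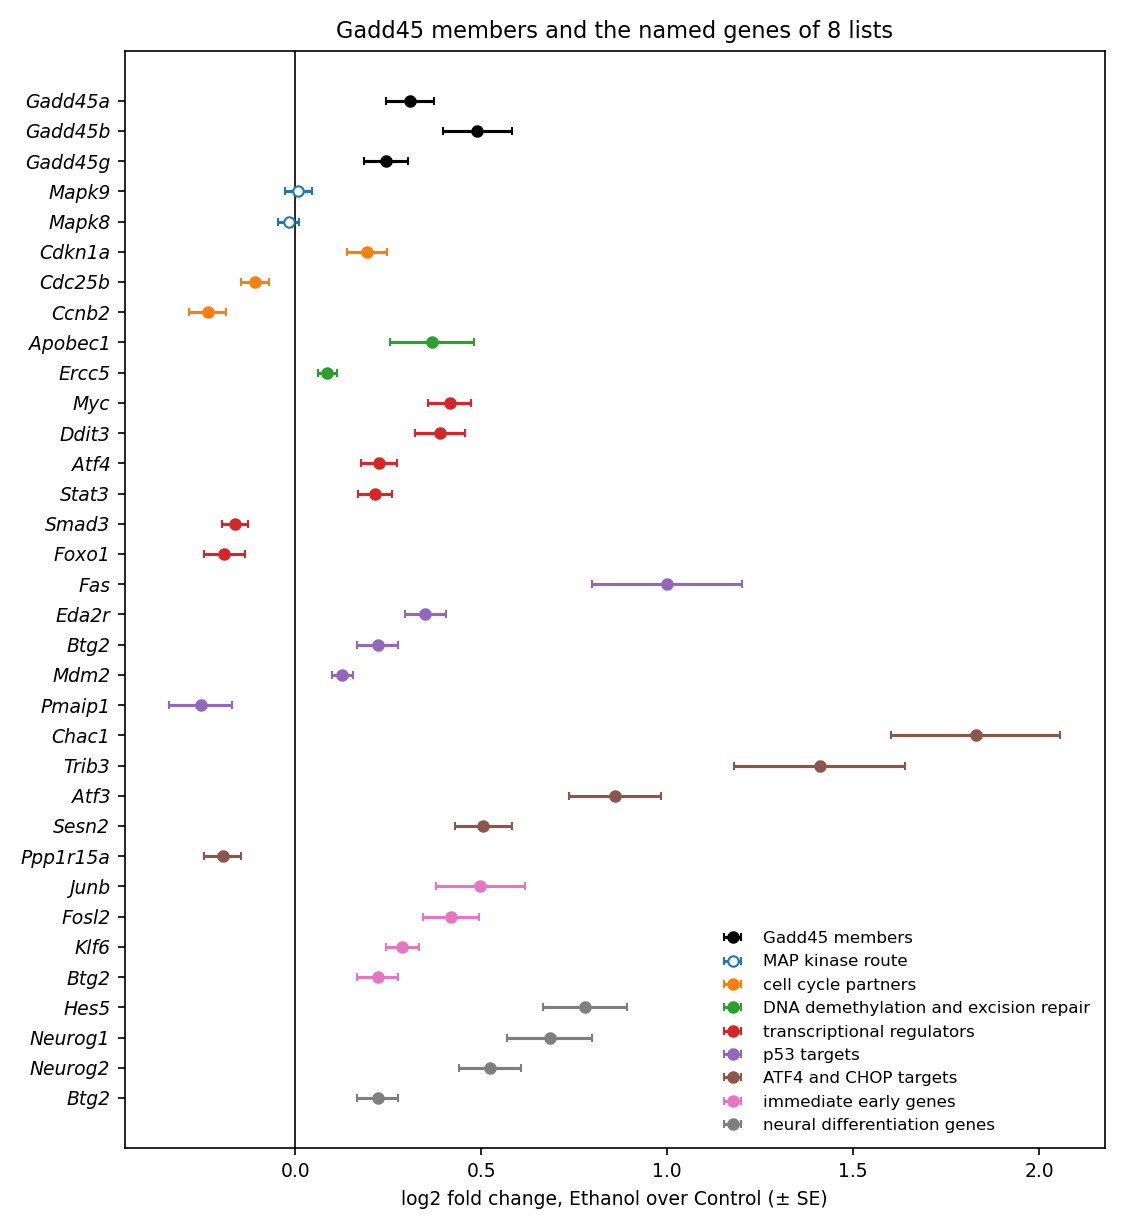
Log2 fold change of Ethanol over Control (± SE) for the 3 Gadd45 members (black, chosen on this contrast) and the named genes of 8 lists, 12 animals per group. Filled symbols of listed genes passed an adjusted p of 0.05 and open ones did not; Chac1 (1.83) and Trib3 (1.41) lie farthest to the right, the members lie between 0.24 and 0.49, and Mapk8 and Mapk9 lie near 0.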

How the data were processed

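The authors deposited 1 table of estimated counts per gene, made with STAR and Salmon on GRCm39, per the submitters' processing notes. For tool versions, annotation release and strandedness the entry is: not given in the sources used here. Of all values 10.92% lie more than 0.01 from an integer, and all were rounded before the test. No pair of libraries agreed within sampling noise (lowest mean chi-square per gene 4.953 over 276 pairs), and 0 columns were left unmapped. Groups came from the labels. Each library is from its own animal, whose litter the labels do not give.

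Genes passing filterByExpr (17736) were scaled by TMM. The test was that of edgeR 4.0.16 under R 4.3.3 (quasi-likelihood, robust, 22 residual degrees of freedom, Benjamini-Hochberg adjustment over all genes, threshold 0.05). The SE was taken from the F statistic, and log2 CPM used a prior count of 2. The test was checked on simulated counts.

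The members, gene lists and comparison genes were chosen with earlier results of these data known. Genes named were the members, in each list up to 4 per direction with the smallest p (or the 2 of highest level), the 10 comparison genes and the 5 genes most correlated with each member; genes outside this rule are marked. Correlations used 100000 permutations within groups in Python 3.11.15 (numpy 2.4.6, scipy 1.17.1). Alternatives were limma 3.58.1 (trend, voom), DESeq2 1.42.0, upper-quartile or RLE scaling, dropping the filter, 1 CPM in 12 libraries, runs as a block, 3 surrogate variables (sva 3.50.0), a choroid plexus score, and leaving out the 4 libraries with Ttr under 4 log2 CPM, each animal or each run; for correlations, also a prior count of 0.5. Coordinates are of GRCm38, another build than that of the counts, and serve only for sequences, lengths and overlaps.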

Additional observations from a re-analysis of the deposited data

How the results depend on the processing

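The log2 fold changes of the 3 members stayed positive under all alternatives run. These alternatives reuse the libraries on which the members were chosen, so this describes the processing and is no support for the difference. None moved by more than the SD between animals within groups (0.157, 0.214 and 0.149 on the log2 scale for Gadd45a, Gadd45b and Gadd45g). That margin is wider than the SE and hard to exceed. Leaving out each animal or run gave 0.26 to 0.34 for Gadd45a, 0.45 to 0.55 for Gadd45b and 0.21 to 0.28 for Gadd45g. The number of genes lower in Ethanol fell to 662 with no filter and 612 without the 4 libraries low in Ttr, against 1028, and ran from 499 to 1438 over the leave-outs, with 616, 612 and 499 without run 1, 3 and 4. The MAP kinase route, with 0 calls, had 2 with DESeq2 and upper-quartile factors, 3 with the run block, 1 with the stricter filter, surrogate variables or the choroid plexus score, and 0 to 3 over the leave-outs (3 without animal X4673 or run 2). DNA demethylation and repair had 1 call with no filter, 0 without the libraries low in Ttr and 0 to 2 over the leave-outs (0 without animal X4568, X4677 or X4692, run 1 or run 2). Neural differentiation genes had 4 calls without the libraries low in Ttr and 4 to 7 over the leave-outs (4 without animal X4568, X4569, X4695, X4697 or X4762, or run 2, 3 or 4), cell cycle partners 1 to 4 (1 without run 2 or 4) and p53 targets 4 to 8 (4 without run 2). The r of Gadd45a with Gadd45g ran from 0.52 to 0.64 as single animals were left out and passed without Control animal X4570 (0.64, permutation, adjusted p = 0.0313) or X4697 (0.58, adjusted p = 0.049). Of 29 named list and comparison genes past the test, 20 kept the call under every alternative that gave a value. The cause of these changes was not tested. The groups share no animal numbers, so the runs served as the block: 1982 genes were then higher and 1363 lower. Gadd45b, at 56 to 146 reads per library, is the member whose precision depth limits most.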

Other observations

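Gadd45gip1, a mitochondrial ribosome gene named for binding of its product to the GADD45 proteins and not a member of the family, was looked at after the members' values were known. It averaged 25.3 ± 2.45 CPM in Ethanol animals and 24 ± 1.66 CPM in Control animals (SD, n = 12 each), a difference of 0.082 ± 0.048 on the log2 scale (SE, adjusted p = 0.27, edgeR's quasi-likelihood test). Among animals, Gadd45a, Gadd45b and Gadd45g lay below the fitted trend of spread against abundance, Gadd45g only slightly. Their biological coefficients of variation were 0.102, 0.129 and 0.100, where the trend over genes gave 0.148, 0.213 and 0.111. Choosing members on the contrast of these libraries can favour genes of low spread, so this is a description and not a trait of the family.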
